A study of Homo sapiens with 4 samples.

Results

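The genes described here are the heat shock proteins and molecular chaperones measured in gastric cancer (GC) cells treated with isorhamnetin (ISO), a plant flavonol. They were chosen by symbol among the protein-coding genes of the table: the HSPA, HSPB, HSP90, DNAJA, DNAJB, DNAJC, CCT, BAG and PFDN genes, together with TCP1, HSPD1, STIP1, AHSA1, PTGES3, FKBP4, CDC37 and TRAP1. The table held 35 such genes among its 2897 genes. The names HSPH1, HSPE1, HSF1, HSF2 and HSBP1 were also part of the choice, but those genes, and the stress-inducible HSPA1A and HSPA1B, were not analysed here.

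RNA-seq values were available for 4 libraries, 1 for each condition of each cell line, AGS-1 and HGC-27. Both are established gastric cancer lines and both were given as wild type. The AGS-1 control and HGC-27 control libraries came from untreated cells, and the other two from cells given 50 μM ISO for 24 h, the dose and time in the sample labels. The text of the study gives a lower dose for its sequencing experiment. It also speaks of duplicates, whereas the values available here form 1 column for each condition and line. How the duplicates relate to these columns is not given in the sources used here. Each value is in FPKM, the number of fragments scaled by gene length and library size, a level per length that allows genes to be compared with each other. Pairs of levels are given in the order control, ISO.

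Chaperones bind unfolded or partly folded proteins and help them to fold, to assemble or to be degraded. HSP70 proteins work in cycles of ATP hydrolysis that J-domain proteins start and nucleotide exchange factors end, and they pass some clients to HSP90 or to the ring-shaped chaperonin TRiC. HSPA8 (also called HSC70) is the HSP70 that most cells make without stress, whereas several other chaperone genes are best known as targets of heat shock factor, the transcription factor that proteotoxic stress activates. Tumour cells commonly hold high levels of HSP90 and HSP70, which keep many signalling proteins in a folded state.

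The libraries held between 15235004 and 20199425 fragments, as recovered from the FPKM values, and the chaperone genes took 1.13% to 1.45% of them. The lowest count behind any chaperone value was 230 fragments, for the prefoldin subunit PFDN4 in the ISO-treated HGC-27 library. With 1 library per condition and line there is no replicate spread within a line, so the standard errors (SE) given for ratios within a line cover counting error only. Epithelial markers were high in AGS-1 only. Of the 5 markers 4 were in the table, KRT8, KRT18, KRT19 and EPCAM. Their summed FPKM was 1912 and 1135 in the AGS-1 control and ISO libraries. In those of HGC-27 it was 3.49 and 1.86, and KRT19 was listed at 0. Mesenchymal COL1A1 and VIM, 2 of 6 listed markers, summed to 10.4 and 7.68 FPKM in AGS-1 and to 654.2 and 561.8 FPKM in HGC-27. These are bulk libraries, in which fewer cells of a kind and less RNA per cell cannot be told apart.

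HSPA8 stood apart from the other chaperone genes under ISO in both lines. In AGS-1 cells it was at 54.5 FPKM in the control and 121.7 FPKM under ISO, from 4029 and 9417 fragments. In HGC-27 cells it was at 79.7 FPKM in the control and 353.5 FPKM under ISO, from 7805 and 29265 fragments. Both ISO libraries were thus above both controls, and the HGC-27 ISO library was the highest of the 4. On the log2(FPKM + 1) scale the ratio of ISO to control reached 1.14 (SE 0.027) in AGS-1 cells and 2.14 (SE 0.018) in HGC-27 cells. The ratio of FPKM itself, with no pseudocount, was 2.23-fold (95% counting interval 2.15 to 2.32) and 4.44-fold (4.33 to 4.55). Among all 2897 genes the ratio on the log2(FPKM + 1) scale ranked 16 in AGS-1 and 1 in HGC-27.

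For the change shared by both lines, limma was run on the log2(FPKM + 1) values of the 2883 genes whose mean reached 1 FPKM, keeping cell line as a blocking term. HSPA8 rose by 1.64 (SE 0.27) with a Benjamini-Hochberg adjusted p = 0.0167, and it was the only 1 of the 35 chaperone genes past 0.05 in either direction. Among all tested genes, 0.104% passed in the higher direction and 0.832% in the lower. At an unadjusted limma p under 0.05 there were 2 chaperone genes higher under ISO, HSPA8 and DNAJA1 (2.22% of all genes), and 7 lower (17.8% of all genes). The fit has 1 residual degree of freedom and borrows its spread across genes. The limma adjusted p of HSPA8 was 0.0592 after median-of-ratios scaling, 0.0912 after upper-quartile scaling, 0.0835 without the filter on low values, 0.0664 without a trend and close to 1 without the cell line in the model, so the call is lost in those settings. With pseudocounts of 0.1 and 5 and with a minimum mean of 10 FPKM the limma adjusted p was between 0.00131 and 0.0420.

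**Figure D1:**
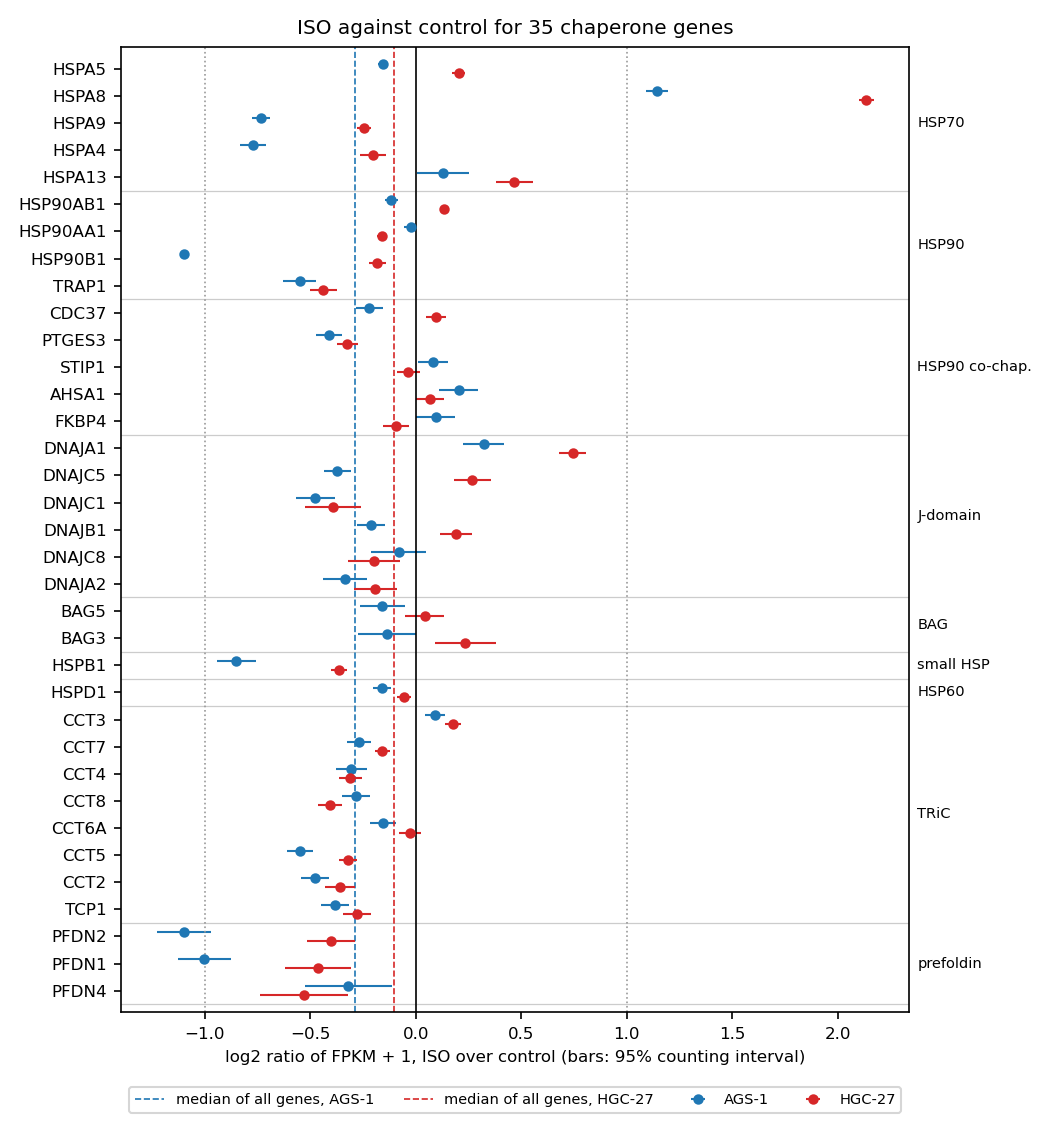
Log2 ratio of ISO to control, log2((FPKM + 1)/(FPKM + 1)), of each of the 35 chaperone genes in AGS-1 and HGC-27, grouped by role, with the median of all genes of each line. HSPA8 lies at 1.14 and 2.14, and the next gene, DNAJA1, at 0.32 and 0.74.

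The distance between HSPA8 and the other chaperones was larger in HGC-27. The gene with the next highest ratio was DNAJA1 in both lines, which lay 0.82 below HSPA8 in AGS-1 and 1.39 below it in HGC-27 on the log2 scale. The median ratio of the other 34 chaperone genes lay at -0.28 for AGS-1 and -0.17 for HGC-27, so HSPA8 was 1.42 and 2.31 above it. Whether the response of HSPA8 differed between the lines could not be tested, since each line has 1 library per condition.

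As a share of the chaperone mRNA pool, HSPA8 made up 1.87% of the summed chaperone FPKM in the AGS-1 control and 5.06% under ISO, and 2.25% and 9.70% in HGC-27. Its rank by level among the 35 genes went from 20 to 4 in AGS-1 and from 15 to 2 in HGC-27. It was below HSPA5, the HSP70 of the endoplasmic reticulum (ER), in 3 of the libraries, with 0.184, 0.456 and 0.654 times its FPKM in the AGS-1 control, AGS-1 ISO and HGC-27 control libraries, and above it, at 2.51 times, in the HGC-27 ISO library. The length of HSPA5 in the table is 1.67 times its GENCODE 29 exon length, and with that exon length the same 4 ratios were 0.110, 0.273, 0.391 and 1.505, a comparison added after seeing the data. Of the summed FPKM of all chaperone genes, 2917 and 2403 in AGS-1 and 3541 and 3643 in HGC-27 (control and ISO), the part without HSPA8 was 2862 and 2282 in AGS-1 and 3461 and 3290 in HGC-27. The pool without HSPA8 under ISO was thus 0.797 times that of the control in AGS-1 and 0.951 times in HGC-27. This direction depended on the scaling, as computed after seeing the data: the ratios were 0.967 and 0.994 with median-of-ratios scaling but 1.07 and 1.05 with upper-quartile scaling.

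**Figure D2:**
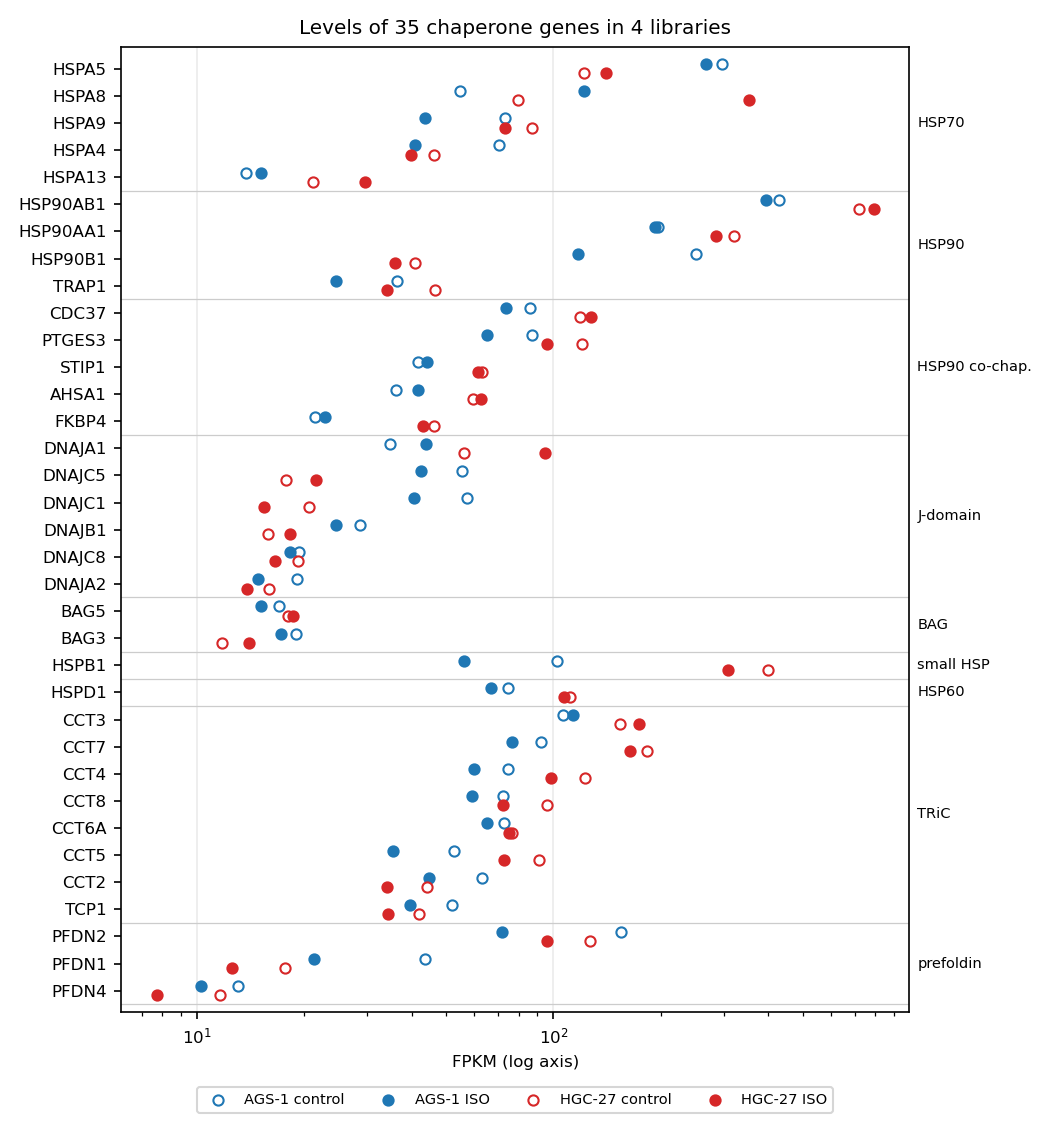
FPKM of the chaperone genes in the 4 libraries on a log axis, grouped by role. HSPA8 lies at 54.5 and 121.7 FPKM for AGS-1 and at 79.7 and 353.5 FPKM for HGC-27 (control, ISO), while most other genes keep close positions within a line.

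The HSPA8 gene (ENSG00000109971) lies on the minus strand of chromosome 11, at 123057489 to 123063230 in the coordinates of the table on GRCh38, and its length there, 4849 bases, equals the exon length in GENCODE 29. Its exons overlap the small nucleolar RNA genes SNORD14C and SNORD14D on the same strand over 175 bases. GENCODE 29 also holds 17 genes named as pseudogenes of HSPA8, none of them in the table, and how the authors' counting treated reads that match several copies is not given in the sources used here.

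Because heat shock factor is the best known regulator of this family, the bases before the RefSeq start of each gene were searched for its binding letters, inverted repeats of GAA. RefSeq promoters on GRCh38.p14 were found for 31 of the 35 genes, and the 250 bases before the start were read. Exact matches to 3 units in alternating orientation (GAANNTTC followed, after any 2 bases, by a further GAA, or the reverse complement of that run, so that both strands were covered) were present at HSPA8, HSP90AA1, HSP90AB1 and HSPD1. These are 4 of 31 chaperone genes (12.9%), against 0.557% of 27305 RefSeq genes searched in the same way. The matches at HSPA8 began 230 and 55 bases before the start. The 4 promoters are shown with that of DNAJA1, the gene nearest to HSPA8 in its ratio, which held 1 match to the 2-unit letters; capitals mark the matched letters.
HSPA8 (chr11:123062137-123062386, minus strand): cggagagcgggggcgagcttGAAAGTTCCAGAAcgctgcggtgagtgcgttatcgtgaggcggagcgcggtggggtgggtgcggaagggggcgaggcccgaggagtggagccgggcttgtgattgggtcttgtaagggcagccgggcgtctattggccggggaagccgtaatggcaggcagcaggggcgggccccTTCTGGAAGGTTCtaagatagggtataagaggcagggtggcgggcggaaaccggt
HSP90AA1 (chr14:102087045-102087294, minus strand): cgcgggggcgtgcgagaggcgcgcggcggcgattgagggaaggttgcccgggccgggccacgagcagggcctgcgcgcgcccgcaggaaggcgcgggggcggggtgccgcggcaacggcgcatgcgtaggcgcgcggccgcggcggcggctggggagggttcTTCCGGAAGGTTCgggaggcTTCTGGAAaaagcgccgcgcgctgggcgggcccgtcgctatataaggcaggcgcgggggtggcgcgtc
HSP90AB1 (chr6:44247693-44247942, plus strand): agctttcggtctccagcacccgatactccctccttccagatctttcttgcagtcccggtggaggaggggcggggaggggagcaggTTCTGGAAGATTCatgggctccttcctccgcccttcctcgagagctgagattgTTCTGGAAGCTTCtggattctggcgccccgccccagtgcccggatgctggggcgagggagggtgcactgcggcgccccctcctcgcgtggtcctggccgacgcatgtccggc
HSPD1 (chr2:197499841-197500090, minus strand): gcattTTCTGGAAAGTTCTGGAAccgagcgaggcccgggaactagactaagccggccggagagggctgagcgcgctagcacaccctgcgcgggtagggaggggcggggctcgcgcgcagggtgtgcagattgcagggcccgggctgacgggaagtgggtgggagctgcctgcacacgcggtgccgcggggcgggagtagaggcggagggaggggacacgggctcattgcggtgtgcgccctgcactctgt
DNAJA1 (chr9:33025023-33025272, plus strand): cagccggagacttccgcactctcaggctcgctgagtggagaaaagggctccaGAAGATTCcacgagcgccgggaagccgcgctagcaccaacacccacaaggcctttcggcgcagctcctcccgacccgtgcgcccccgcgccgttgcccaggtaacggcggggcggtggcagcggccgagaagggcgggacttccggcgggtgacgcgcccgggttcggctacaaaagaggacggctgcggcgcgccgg
The RefSeq start of HSPA8 lies within the gene bounds of the table, which extend further upstream.

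The 4 genes with the 3-unit letters did not share a ratio. HSPA8 was at 1.14 and 2.14 in AGS-1 and HGC-27, whereas HSP90AA1 was at -0.02 and -0.16, HSP90AB1 at -0.11 and 0.13 and HSPD1 at -0.16 and -0.06. The 2-unit letters, GAANNTTC or TTCNNGAA, which the 3-unit letters contain, were at 9 of 31 chaperone genes (29%) and 14% of all genes, and the genes besides those named were CCT2, DNAJB1, HSPB1 and TCP1. CCAAT, on either strand, was at 35.5% of the chaperone genes and 37% of all genes. A match is a description of the letters and not evidence of binding.

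No other HSP70 gene was at least 2-fold higher under ISO in either line. With the deposited scaling, only HSPA13 of them was above 0 in both lines. HSPA5 was at 297.2 and 267.0 FPKM in AGS-1 cells and at 121.9 and 140.6 FPKM in HGC-27 cells, ratios of -0.15 (SE 0.012) and 0.20 (SE 0.016). Mitochondrial HSPA9 had ratios of -0.73 and -0.24, and HSPA4, an HSP110-type partner that exchanges nucleotide on HSP70, -0.77 and -0.20. HSPA13, a microsome-associated HSP70, was at 13.7 and 15.1 FPKM in AGS-1 and at 21.1 and 29.6 FPKM in HGC-27, with ratios of 0.13 (SE 0.063) and 0.47 (SE 0.045), the third highest chaperone ratio in HGC-27. None of these 4 passed the shared limma test, with adjusted p between 0.240 and 0.966.

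The larger HSP70 sum of HGC-27 under ISO lay almost wholly in HSPA8. The HSP70 genes together summed to 508.9 and 488.1 FPKM in AGS-1 and to 355.9 and 636.9 FPKM in HGC-27, and without HSPA8 to 454.3 and 366.4 and to 276.2 and 283.4 FPKM. Its share of HSP70 FPKM was 10.7% and 24.9% in AGS-1, and 22.4% and 55.5% in HGC-27.

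**Figure D3:**
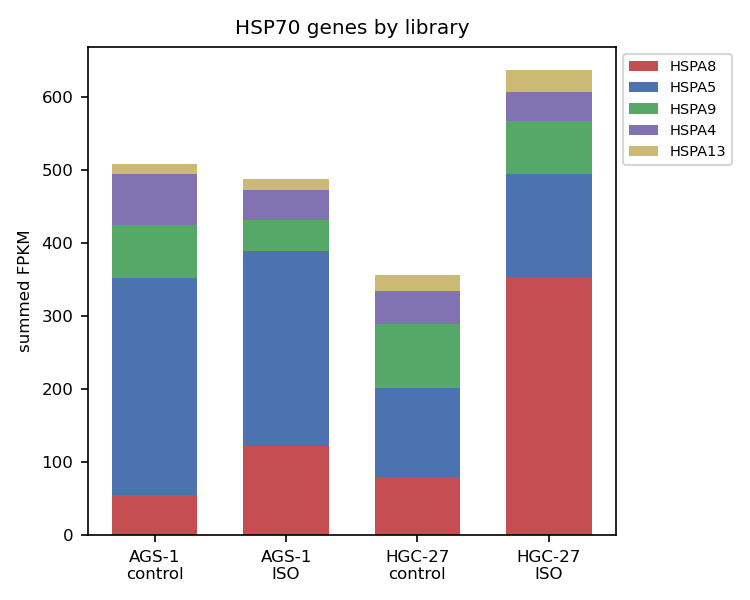
Summed FPKM of the 5 HSP70 genes in each library, each bar starting at 0 and divided by gene. HSPA8 takes 10.7% and 24.9% of the bar for AGS-1 (control, ISO), and 22.4% and 55.5% for HGC-27.

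HSP90AB1, the constitutive cytosolic HSP90, had the highest FPKM of the chaperones in every library with the lengths of the table, and its levels with and without ISO were close. It was at 428.5 and 395.6 FPKM in AGS-1 cells and at 721.0 and 790.7 FPKM in HGC-27 cells. Its ratios, -0.11 (SE 0.015) and 0.13 (SE 0.010), had opposite signs, with the deposited scaling alone. The stress-responsive HSP90AA1 was at 0.459 and 0.488 times the FPKM of HSP90AB1 in AGS-1, and at 0.444 and 0.362 times in HGC-27. The level of HSPA8 was 0.127 and 0.308 times that of HSP90AB1 in AGS-1, and 0.111 and 0.447 times in HGC-27.

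The organelle forms of HSP90 had ratios below 0 in both lines, but HSP90B1 lay near the median of all genes in HGC-27. HSP90B1 (GRP94), the HSP90 of the ER, was at 251.6 and 117.1 FPKM in AGS-1 and at 40.8 and 35.9 FPKM in HGC-27, ratios of -1.10 (SE 0.011) and -0.18 (SE 0.021). It was 1 of 3 chaperone genes at least 2-fold lower in AGS-1, the others being PFDN2 and PFDN1, in a table in which 6.63% of genes were. TRAP1, the mitochondrial HSP90, was at 36.5 and 24.6 FPKM in AGS-1 and at 46.6 and 34.2 FPKM in HGC-27, ratios of -0.55 (SE 0.040) and -0.44 (SE 0.033). In the shared limma test HSP90B1 had an adjusted p of 0.199 and TRAP1 of 0.193. Relative to the median of all genes, -0.29 in AGS-1 and -0.11 in HGC-27, HSP90B1 was at -0.81 and -0.08, and TRAP1 at -0.26 and -0.33. With either of the alternative scalings (median of ratios, upper quartile) 0 of the 3 genes named as 2-fold lower in AGS-1 remained so.

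HSP90 co-chaperones lay within 0.5 log2 units of 0 in both lines with the deposited scaling. CDC37, which brings kinases to HSP90, was at 86.0 and 73.7 FPKM in AGS-1 and at 118.8 and 127.0 FPKM in HGC-27. AHSA1, the activator of the HSP90 ATPase, was at 36.1 and 41.7 FPKM in AGS-1 and at 59.5 and 62.4 FPKM in HGC-27. Its ratios, 0.20 (SE 0.047) and 0.07 (SE 0.035), were both above 0. STIP1 (HOP), which links HSP70 to HSP90, had ratios of 0.08 and -0.04, the immunophilin FKBP4 0.09 and -0.09, and PTGES3 (p23), which holds HSP90 in its closed state, -0.41 and -0.32. The 5 had a median of 0.08 in AGS-1 cells and -0.04 in HGC-27 cells.

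Among J-domain genes, DNAJA1 had the highest ratios. This HSP40 partner of HSPA8 was at 34.8 and 43.8 FPKM in AGS-1 and at 56.1 and 94.6 FPKM in HGC-27, 1.26-fold and 1.69-fold. Each ISO library was above the control of its own line, and both HGC-27 libraries were above both AGS-1 libraries. The shared limma estimate of 0.53 (SE 0.22) had an adjusted p of 0.205. Its FPKM was 0.639 and 0.360 times that of HSPA8 in AGS-1, and 0.704 and 0.268 times in HGC-27, so that the J-domain partner was further below HSPA8 under ISO. DNAJB1 (HSP40), a classical heat-inducible partner, was at -0.21 (SE 0.034) and 0.19 (SE 0.038). DNAJA2 was at -0.34 and -0.19, DNAJC1, an ER membrane protein, at -0.48 and -0.39, DNAJC5, the cysteine string protein, at -0.37 and 0.27, and DNAJC8 at -0.08 and -0.20.

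The BAG genes, whose products release nucleotide from HSP70, were low and little different between conditions. BAG5 was at 17.03 and 15.2 FPKM in AGS-1 and at 18.02 and 18.6 FPKM in HGC-27, ratios of -0.16 (SE 0.054) and 0.04 (SE 0.047). BAG3, a heat shock factor target that works in selective autophagy, had ratios of -0.14 (SE 0.070) and 0.24 (SE 0.074).

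The small heat shock protein gene HSPB1 (HSP27), whose product holds unfolded proteins without ATP, was lower under ISO in both lines. It was at 102.0 and 56.1 FPKM in AGS-1 and at 398.5 and 309.6 FPKM in HGC-27, ratios of -0.85 (SE 0.047) and -0.36 (SE 0.020), with a limma adjusted p of 0.219. HSPD1 (HSP60), the mitochondrial chaperonin, was at 74.6 and 66.7 FPKM in AGS-1 and at 111.2 and 106.9 FPKM in HGC-27. Its ratios were -0.16 (SE 0.022) and -0.06 (SE 0.016).

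The 8 subunit genes of TRiC, the cytosolic chaperonin that folds actin and tubulin, had small ratios. Their median ratio was -0.29 in both lines, which equals the median of all genes in AGS-1 (-0.29) and lies below it in HGC-27 (-0.11). With the deposited scaling CCT3 alone was above 0, at 106.5 and 113.7 FPKM in AGS-1 and at 153.6 and 173.8 FPKM in HGC-27, ratios of 0.09 (SE 0.025) and 0.18 (SE 0.019). The other 7 lay between -0.55 (CCT5) and -0.15 (CCT6A) in AGS-1 and between -0.41 (CCT8) and -0.03 (CCT6A) in HGC-27. The signs turned with the scaling: 3 of the 8 AGS-1 ratios and 2 of those of HGC-27 were above 0 with median-of-ratios scaling, and 6 and 2 with upper-quartile scaling. The AGS-1 median of the 8 was then 0.12 with upper-quartile scaling, beside 0.09 for all genes. None passed the shared limma test, in which the lowest adjusted p of the group was 0.272 and 0 had an unadjusted p under 0.05. The ratio of the highest to the lowest subunit in FPKM was 2.06 and 3.20 in AGS-1, and 4.36 and 5.09 in HGC-27. In the assembled ring each subunit protein is present in equal number, but FPKM is a level of mRNA. Its spread between genes also depends on the gene lengths used, and subunit proteins were not measured here.

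The prefoldin genes, whose product delivers unfolded actin and tubulin to TRiC, had the lowest median ratio of any role in both lines, -1.001 in AGS-1 and -0.46 in HGC-27. PFDN2 was at 154.5 and 71.6 FPKM in AGS-1 and at 126.7 and 95.6 FPKM in HGC-27, ratios of -1.10 (SE 0.065) and -0.40 (SE 0.057). PFDN1 was at 43.6 and 21.3 FPKM in AGS-1 and at 17.7 and 12.5 FPKM in HGC-27, ratios of -1.001 (SE 0.063) and -0.46 (SE 0.079). PFDN4 was at 13.0 and 10.2 FPKM in AGS-1 and at 11.6 and 7.73 FPKM in HGC-27, ratios of -0.32 (SE 0.11) and -0.53 (SE 0.11). All 3 subunits were thus lower under ISO in each line with the deposited scaling, whereas with upper-quartile scaling PFDN4 was at 0.07 in AGS-1. Their sums were 211.2 and 103.2 FPKM in AGS-1, and 156.0 and 115.9 FPKM in HGC-27. In the shared limma test PFDN1 had an estimate of -0.73 (SE 0.20) with an adjusted p of 0.103, and it passed, with 0.0362, only when genes with a mean under 10 FPKM were left out. PFDN2 had an adjusted p of 0.143 and PFDN4 of 0.309. The remaining subunits PFDN5 and PFDN6 were not analysed here, and VBP1, which encodes a further subunit, was at 0.13 in AGS-1 and -0.22 in HGC-27.

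As a whole the chaperone genes had medians near those of the table. Their median ratio lay at -0.27 for AGS-1 and -0.16 for HGC-27, beside -0.29 and -0.11 for all genes. The ratio was above 0 for 7 of the 35 in AGS-1 (20.4% of all genes were) and for 12 in HGC-27 (35.4% of all genes), and below 0 for 28 (78.6% of all genes) and 23 (64.2%). After median-of-ratios scaling and after upper-quartile scaling, the counts above 0 were 18 and 25 in AGS-1 and 15 and 16 in HGC-27. Those scalings moved the median of all genes as well, from -0.29 to -0.025 and 0.09 in AGS-1. In HGC-27 it went from -0.11 to -0.046 and 0.031. The shares of all genes above 0 under these scalings were not computed, so the counts are not read as a result about chaperones. The share of each library's fragments held by the listed genes also differed, 78.5% and 64.4% in AGS-1 and 61.0% and 60.0% in HGC-27, and its part in the ratios was not tested. Within 0.5 log2 units of 0 were 26 of the 35 in AGS-1 (66.7% of all genes) and 32 in HGC-27 (87.8%). Only HSPA8 was at least 2-fold higher in AGS-1, where 0.828% of genes were, and in HGC-27, where 0.552% were, and 0 chaperone genes were 2-fold lower in HGC-27, where 0.932% were.

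In 5 genes the ratio was above 0 in both lines: HSPA8, DNAJA1, HSPA13, AHSA1 and CCT3, a share close to the 13% of all genes. They were also above 0 in both lines under the other two scalings. Below 0 in both lines were 21 genes (56% of all genes), and 10 of these remained so under all 3 scalings (24.5% of all genes): HSPA9, HSPA4, HSP90B1, TRAP1, DNAJC1, HSPB1, CCT5, CCT2, PFDN2 and PFDN1. Across the 35 genes the ratios of the lines were related, with Pearson's r = 0.78 and Spearman's rho = 0.74, and with r = 0.65 and rho = 0.71 over the 34 genes other than HSPA8. These are across genes, which share libraries, scaling and depth and are not independent replicates. The ratio was lower in AGS-1 than in HGC-27 for 27 of the 35, as it was for 72.5% of all genes.

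**Figure D4:**
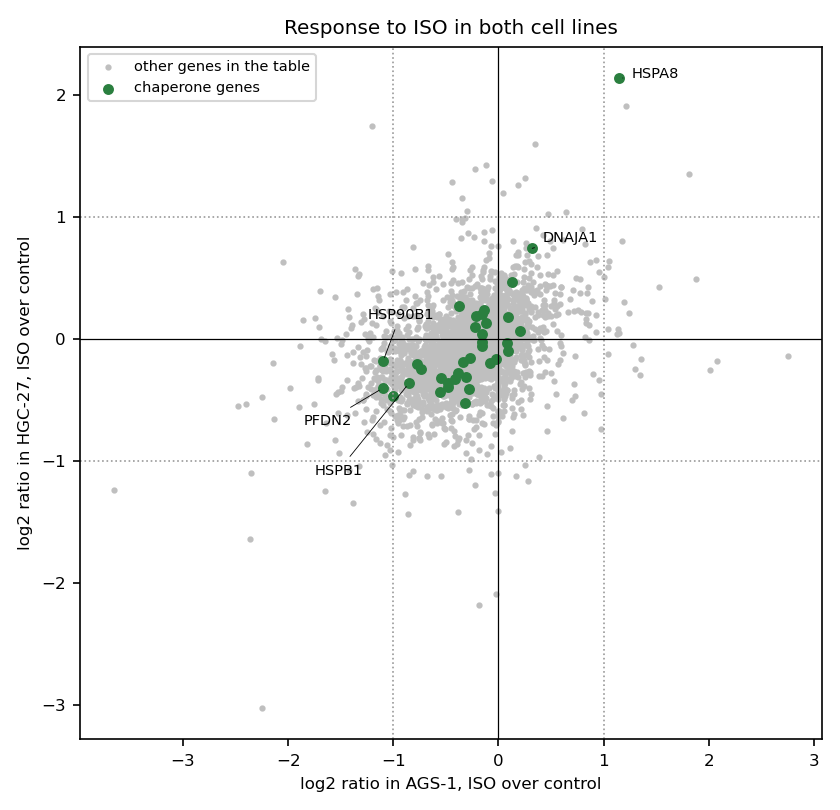
Log2 ratio of ISO to control in HGC-27 against that in AGS-1 for the 35 chaperone genes over all genes of the table. HSPA8 (1.14 and 2.14) is the only chaperone gene at the upper right, among 3 genes of the table at least 2-fold higher in both lines. PFDN2, PFDN1 and HSP90B1 lie at the left, between -1.10 and -1.001 in AGS-1.

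More chaperone genes passed the test between cell lines than that between conditions. In the same limma fit, with treatment in the model, 13 of the 35 genes were higher in HGC-27 and 6 in AGS-1 at an adjusted p under 0.05, beside 24.7% and 32.2% of all genes. Over all genes 711 were higher in HGC-27 and 928 in AGS-1, and 1047 and 797 after upper-quartile scaling, when the chaperone counts were 19 and 5. Both libraries of a line are grouped here across treatments, so the p-values measure the spread between these libraries and not between cultures. The epithelial and mesenchymal markers given above also separate the lines, and their part in these differences was not tested. Without treatment in the model 9 chaperone genes passed, 5 higher in HGC-27 and 4 in AGS-1. Over all 2883 tested genes, 485 and 697 then passed in these directions.

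HSPB1 was the most different in favour of HGC-27, by 2.20 (SE 0.26, limma adjusted p = 9.7e-06), with 398.5 and 309.6 FPKM against 102.0 and 56.1 FPKM. CCT7 was higher there by 1.03 (SE 0.24, limma adjusted p = 0.00235), at 182.6 and 163.6 FPKM against 92.2 and 76.4 FPKM in AGS-1. HSPA8 had a line difference of 1.03 (SE 0.27, limma adjusted p = 0.00599), lost without treatment in the model (limma adjusted p = 0.266), and its libraries overlapped, since the HGC-27 control at 79.7 FPKM was below the AGS-1 ISO library at 121.7 FPKM. Between the controls its difference was 0.54 and between the ISO libraries 1.53. FKBP4, CCT5 and DNAJA1 were also among those higher in HGC-27, by 0.98, 0.90 and 0.88.

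In the other direction, HSP90B1 was lower in HGC-27, with a difference of -2.14 (SE 0.26, limma adjusted p = 1.3e-05). DNAJC1 was at 57.0 and 40.7 FPKM in AGS-1 and at 20.6 and 15.5 FPKM in HGC-27, a difference of -1.38 (SE 0.19, limma adjusted p = 4.2e-05). DNAJC5, at 55.3 and 42.5 FPKM in AGS-1 and 17.8 and 21.6 FPKM in HGC-27, differed by -1.27 (SE 0.21, limma adjusted p = 0.000223). HSPA5 differed by -1.10, PFDN1 by -0.99 and DNAJB1 by -0.61. The libraries of HGC-27 were both above those of AGS-1 for 18 of the 35 genes (34.6% of all genes) and both below for 8 (39.4%), and they overlapped for 9.

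**Figure D5:**
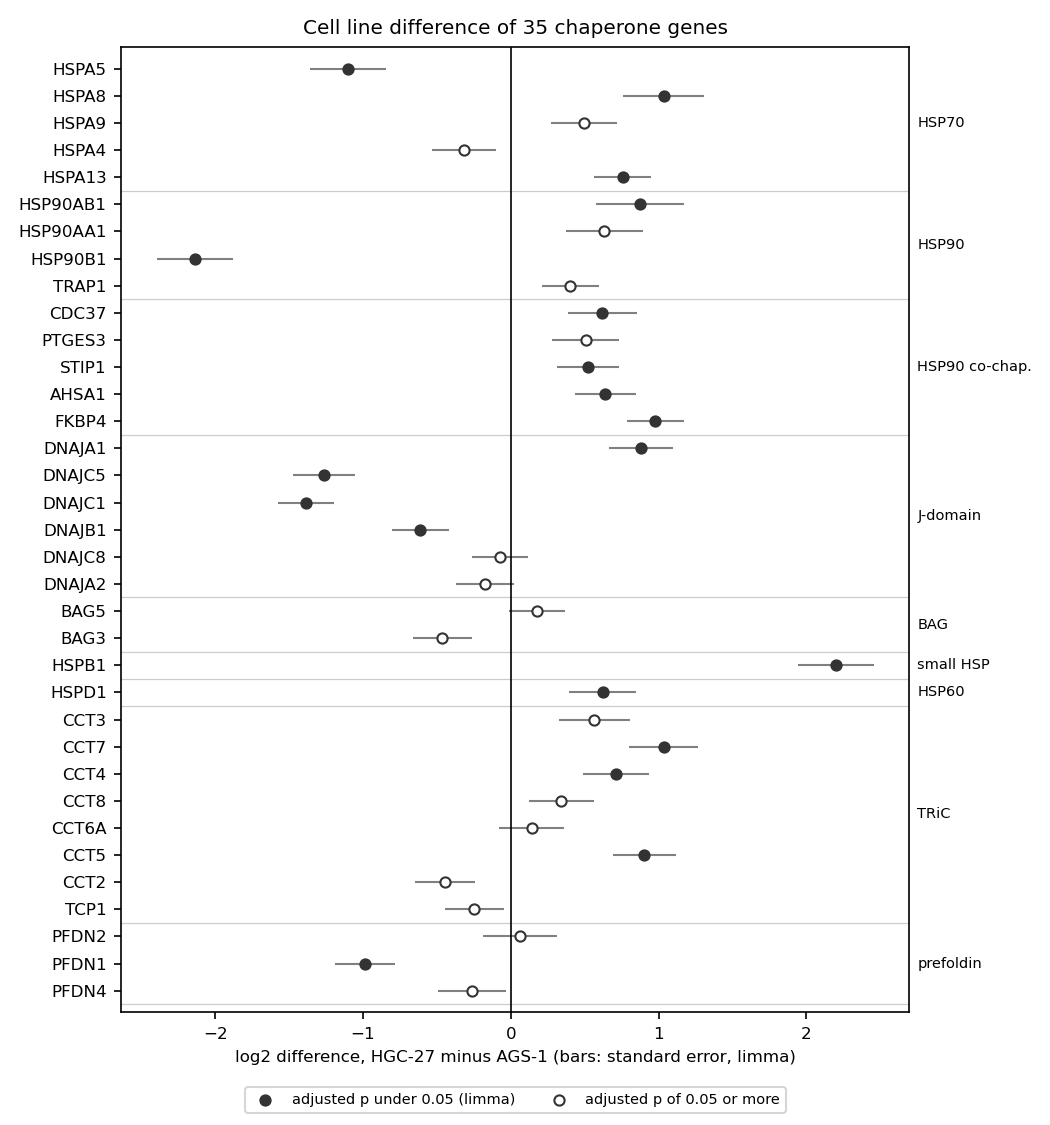
Limma difference between cell lines, HGC-27 minus AGS-1 in log2(FPKM + 1), for the 35 chaperone genes with its standard error. HSPB1 lies highest, at 2.20, and HSP90B1 lowest, at -2.14.

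Other genes of the proteostasis network did not pass the shared test. Of 32 further chaperone and proteostasis genes, 15 were in the table, with median ratios of -0.31 and -0.18 in the 2 lines, none at least 2-fold different and none past the shared limma test, in which the lowest adjusted p was 0.228 (2 had an unadjusted p under 0.05), while 5 were higher in HGC-27 (24.7% of all genes) and 2 in AGS-1 (32.2%). VCP, the segregase that extracts ubiquitinated proteins, had ratios of 0.44 and 0.45.

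Of 16 genes for protein folding in the ER, 10 were in the table, with medians of -0.33 for AGS-1 and -0.0087 for HGC-27. With the deposited scaling, HSP90B1 and the disulfide isomerase PDIA4 were at least 2-fold lower in AGS-1 (6.63% of all genes). PDIA4, at 413.5 and 205.6 FPKM in AGS-1, had a ratio of -1.005, close to the threshold. None of the 10 passed the shared limma test (1 had an unadjusted p under 0.05), whereas 6 were higher in AGS-1 than in HGC-27 (32.2% of all genes). Of 22 genes commonly listed as heat shock factor targets, 15 were in the table, 12 of which also belong to the chaperone genes above. Their medians were -0.14 and -0.04, and HSPA8 was the 1 gene of them past the 2-fold threshold in each line and past the shared limma test. Between the lines 9 of the 15 were higher in HGC-27 (24.7% of all genes) and 2 in AGS-1 (32.2%).

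The length used for FPKM sets the order of levels between genes but not a ratio within a gene. For 29 of the 35 genes the length in the table was within 10% of the GENCODE 29 exon length, and for HSP90B1, DNAJB1, HSPD1 and HSPA5 it was over 1.5 times as long. With the GENCODE length, HSP90B1 would be at 701.6 and 326.5 FPKM in AGS-1, the highest chaperone in the AGS-1 control, where HSPA5, at 496.6 FPKM, would also be above HSP90AB1. In the AGS-1 ISO library HSPA5, at 446.2 FPKM, would be the highest, and in both HGC-27 libraries HSP90AB1. Exon bases were shared with another gene for 16 of the 35, the most for CCT5 (1757 bases) and TRAP1 (1596 bases), mainly on the opposite strand. Whether the counting used strand is not given in the sources used here.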

How the data were processed

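RNA-seq of AGS-1 and HGC-27 cells, untreated or given ISO, was available as 1 library per condition and line. The authors deposited FPKM values for 2897 genes, with gene length and coordinates. Per the labels' processing notes, CASAVA 1.8, HISAT2 and GRCh38 were used; the counting tool, its strand setting, the annotation and the rule by which genes entered the table are not given in the sources used here. FPKM times gene length gave whole fragments for 100% of values within 0.01 fragments, which supplied depth (15235004 to 20199425 fragments) and counting errors. Without replicate counts, no count test was run. Ratios were log2((FPKM ISO + 1)/(FPKM control + 1)), which understates changes of low genes, with a threshold of 2-fold and no test within a line. Shared and cell line differences came from limma 3.58.1, run in R 4.3.3 (trended eBayes) on log2(FPKM + 1) over the 2883 genes whose mean reached 1 FPKM. Both factors were in the model, and p-values were Benjamini-Hochberg adjusted over these genes with a threshold of 0.05. The fit was also run on simulated fragments with genes changed alike in both lines. That run does not cover responses that differ between the lines. Values per library were given for HSPA8, genes past a threshold, the 3 highest and 3 lowest ratios of each line, the most abundant gene of each role and the 3 largest cell line differences in each direction. The genes, roles, lists and promoter letters were chosen with earlier results of these data known. Alternatives were pseudocounts of 0.1 and 5, other scalings, other filters, no trend and no block.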

Additional observations from a re-analysis of the deposited data

Results flagged for a closer look

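In 9 of the 35 chaperone genes the ratio of ISO to control had opposite signs in the 2 lines (29.6% of all genes did), and the difference between the lines was not tested. On the log2 scale, HGC-27 minus AGS-1, it was 0.64 for DNAJC5, 0.40 for DNAJB1, 0.37 for BAG3, 0.36 for HSPA5, 0.32 for CDC37, 0.25 for HSP90AB1 and 0.20 for BAG5, with AGS-1 below 0 and HGC-27 above it. It was -0.19 for FKBP4 and -0.12 for STIP1, with AGS-1 above 0. In 6 of the 9 both ratios were beyond their 95% counting interval. The signs were opposite for DNAJC5 and FKBP4 under 2 of the 3 scalings and for the other 7 genes under the deposited scaling alone.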

How the results depend on the processing

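No called ratio or test changed sign. The log2 ratio of HSPA8 was 1.09 and 2.08 (AGS-1, HGC-27) with a pseudocount of 5, 1.42 and 2.20 with median-of-ratios scaling, and 1.56 and 2.29 with upper-quartile scaling. The median ratio of the chaperone genes under these scalings was 0.007 and 0.15 for AGS-1, and -0.097 and -0.011 for HGC-27, so that it moved above 0 in AGS-1. The medians of all genes were -0.025 and 0.09 for AGS-1, and -0.046 and 0.031 for HGC-27. Each scaling shifts all genes of a library alike, and 1 gene, HSPA8, passed 2-fold in AGS-1 under each, against 4. With GENCODE 29 lengths, a setting chosen after seeing the data, the share of HSPA8 in the summed chaperone FPKM was 1.499% and 4.26% in the AGS-1 control and ISO libraries.

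The shared limma test called 1 chaperone gene, 2 (HSPA8 and PFDN1) when genes needed a mean of 10 FPKM, and 0 with median-of-ratios scaling, upper-quartile scaling, no filter, no trend or no replicate block. In those 5 settings 7, 7, 9, 8 and 0 chaperone genes had an unadjusted limma p under 0.05. In the main setting 9 had, beside 2.22% of all genes in the higher and 17.8% in the lower direction. The shares of all genes in the 5 settings were not computed, so the counts are not read as a result about chaperones. The cause of the lost calls was not tested. Over all genes it called 27, against 107 and 12 with pseudocounts of 0.1 and 5, 104 with the higher filter, 6 without a filter, 6 without a trend, and 0 under both other scalings and without the block. Without the block by treatment the test between cell lines called 9 chaperone genes, against 19, and 1182 of all genes, against 1639. The shared test is itself paired by cell line, with 1 residual degree of freedom. Leaving out 1 library left no residual degree of freedom, and adding HSPA8 pseudogenes was not run since the table holds none. Of 272 ratios of the 34 genes other than HSPA8 under the alternatives, 119 moved beyond their counting interval.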
